A study of Homo sapiens with 3 samples.

Results

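Long non-coding snoRNA host genes are transcribed into spliced RNAs that encode no known protein, while their introns carry small nucleolar RNAs (snoRNAs). The genes described here are *SNHG1*, *SNHG3*, *SNHG5*, *SNHG6*, *SNHG7*, *SNHG8*, *SNHG12*, *SNHG15*, *GAS5* and *ZFAS1*, that is 10 of the 12031 genes with a measurable probe on the arrays. They were chosen by name, and each probe whose transcript accession maps to one of these names was taken, which gave 29 of 50599 gene probes. *SNHG5* has 18 of these probes, *SNHG6* and *SNHG7* have 2 apiece, and the other 7 genes have 1 each. All 29 probes were well above background on the 3 arrays and were printed on 1 spot each.

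The cells were HCT116, an established human colon cancer line, and the labels name no engineered allele. They were given control siRNA, siRNA #7 or siRNA #8 for 48 h at 10 nM. Both siRNAs are directed at *HOXA5* short RNA, a non-coding transcript of the *HOXA5* locus, and the question was which genes differ once that RNA is silenced. From each condition 400 ng of RNA was labeled with a single dye and hybridized to 1 array, so no difference has a replicate check and no p-value is given for single comparisons. The HCT116 cells are 1 line, and the RNA came from whole cultures, in which fewer cells in a given state and less RNA per cell cannot be told apart.

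The siRNAs are shown because both conditions aim at overlapping letters. Each has 21 bases, and capitals mark the 17 bases they share.
siRNA #7: gagaAACUGAAAGACAACAUA
siRNA #8: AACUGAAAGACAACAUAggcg

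A snoRNA host gene is read by RNA polymerase II, spliced, and its excised introns are trimmed until only the snoRNA with its bound proteins is left. Box C/D snoRNAs guide the methylation of ribosomal RNA and H/ACA snoRNAs guide its pseudouridylation, so these introns serve ribosome production. Many host transcripts begin with a run of C and T letters, the 5′ terminal oligopyrimidine tract that ribosomal protein mRNAs also carry, and such spliced hosts are drawn into ribosomes and removed by nonsense-mediated decay. Several of them, among them *GAS5*, which was found through its abundance in growth-arrested cells, and *SNHG15*, have been studied in colon cancer.

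The start sites are shown for this reason. RefSeq (GRCh38.p14) gave a start for 8 of the 10 genes. Each line gives the 10 bases before the annotated start and the 20 bases from it, in the direction of transcription, and capitals mark the unbroken run of C and T that begins at the start.
SNHG1, chr11:62855866-62855895, minus strand: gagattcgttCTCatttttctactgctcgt
SNHG5, chr6:85678714-85678743, minus strand: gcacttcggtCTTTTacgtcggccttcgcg
SNHG7, chr9:136728165-136728194, minus strand: ccttctcgtcCTCTgcgtgcgccggaggct
SNHG12, chr1:28581854-28581883, minus strand: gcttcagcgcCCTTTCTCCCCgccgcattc
ZFAS1, chr20:49278632-49278661, plus strand: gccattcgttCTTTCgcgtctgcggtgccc
SNHG8, chr4:118278752-118278781, plus strand: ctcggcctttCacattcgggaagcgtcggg
SNHG3, chr1:28505933-28505962, plus strand: gtgagtttctgattctctaactgcgcatgc
GAS5, chr1:173869026-173869055, minus strand: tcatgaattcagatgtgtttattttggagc

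In 5 of these 8 genes the annotated start was a C followed by C or T for a run of at least 3 letters, read on the transcribed strand only. The run was 11 letters in *SNHG12*, 5 in *SNHG5* and *ZFAS1*, 4 in *SNHG7* and 3 in *SNHG1*. Among 35116 RefSeq starts 2635 had such a run (7.5%). This definition was set after the letters had been seen, and the match describes the annotated start only. *SNHG6* and *SNHG15* have no entry.

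The arrays differed in overall brightness. Intensities are given below in the order control siRNA, siRNA #7, siRNA #8, and a pair of ratios in the order siRNA #7, siRNA #8, each against control siRNA. The 75th percentile of gene probe intensity was 52.8, 42.1 and 42.8, and every level is the log2 intensity minus that of the 75th percentile of its array. A probe with equal raw intensity on all arrays therefore has a positive ratio to control siRNA. The error given with a ratio is the spot-to-spot SD from probes printed 10 times on an array. It covers spotting and scanning but not how far cultures vary. The 3 arrays lay on 1 slide. Of 7 colon epithelial markers, 6 were well above background on all arrays and *VIL1* was not. Of 6 markers of leukocytes, fibroblasts, endothelium and hepatocytes only *COL1A1* was, at intensities of 48.1, 28.2 and 35.9, while *PTPRC*, *COL3A1*, *PECAM1*, *CDH5* and *ALB* were not. The single *HOXA5* probe, the check of the targeted locus, had log2 ratios of -0.36 (SD 0.25) and -0.23 (SD 0.26). Which of the *HOXA5* transcripts it binds was not tested.

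With siRNA #7, 9 of the 10 host genes lay above their control siRNA level by their brightest probe, where 51.7% of all genes did. When the arrays were scaled on spike-in probes 5 of the 10 did, where 18.8% of all genes did. No host gene was past 2-fold in either direction, whereas 3.77% of all genes were (2.05% higher, 1.72% lower). Their median log2 ratio was 0.32, and that of all genes was 0.016. *SNHG5*, *SNHG15* and *ZFAS1* had the highest ratios, and *SNHG7* had the only ratio under 0. None of the 10 passed 1.5-fold, which 14.5% of all genes did (7.6% upward, 6.92% downward).

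With siRNA #8, 6 of the 10 were above and 4 below the control siRNA level (50.8% and 49.2% of all genes), with ratios from -0.49 to 0.39. These counts were 5 and 5 under spike-in scaling, where 26.8% of all genes were above. The median was 0.20 for the host genes and 0.0072 for all genes. Again 0 were past 2-fold (4.98% of all genes, 1.95% upward and 3.03% downward) and 0 past 1.5-fold (18% of all genes, 7.79% upward and 10.3% downward). *SNHG3*, *SNHG6* and *ZFAS1* had the highest ratios and *SNHG7*, *SNHG8* and *SNHG12* the lowest. The 2 ratios of a gene share 1 control array. The ratios of 6 genes (*SNHG1*, *SNHG3*, *SNHG5*, *SNHG6*, *GAS5* and *ZFAS1*) were above 0 with both siRNAs (32.8% of all genes), *SNHG7* was below with both (30.3%), and *SNHG8*, *SNHG12* and *SNHG15* were above with siRNA #7 and below with siRNA #8 (18.9%).

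Set directly against siRNA #7, the siRNA #8 array had a lower value for 8 of the 10 genes (51.2% of all genes) and a higher one for *SNHG3* and *SNHG6* (48.8%), with a median log2 ratio of -0.19, against -0.013 for all genes. No host gene differed 2-fold between the siRNAs (5.64% of all genes, 2.27% upward and 3.37% downward). *SNHG8* alone differed 1.5-fold, downward, as 11.6% of all genes did (8.87% upward, 20.5% in either direction). Over the 3468 genes whose mean intensity lay in the range of the host genes, from 403 to 8414, the median ratios were 0.012 and -0.0062 against control siRNA, and -0.026 for siRNA #8 against siRNA #7.

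The offset of the host genes against control siRNA is tied to the scaling. The arrays were also scaled on 10 E1A spike-in probes, which bind control RNA spiked into the labeling. The median of all genes was then -0.31 with siRNA #7 and -0.23 with siRNA #8. The host gene medians became -0.0055 and -0.042, and 5 of 10 were above 0 with each siRNA (18.8% and 26.8% of all genes). This scaling shifts all genes of an array alike, so it cannot change the distance of the host genes from all genes. That distance was 0.30 upward with siRNA #7 and 0.19 upward with siRNA #8. With quantile normalization it was 0.28 and 0.16, and with neighbouring spots removed 0.27 and 0.19. With normexp background correction that distance shrank to 0.13 and 0.054. Without a filter on dim probes it was 0.17 and 0.056. There the host gene medians stayed at 0.32 and 0.20 and the medians of all genes were 0.15 and 0.14. With the mean or the median of the probes of a gene the distance was 0.24 with siRNA #7, and 0.054 and 0.055 with siRNA #8.

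**Figure D1:**
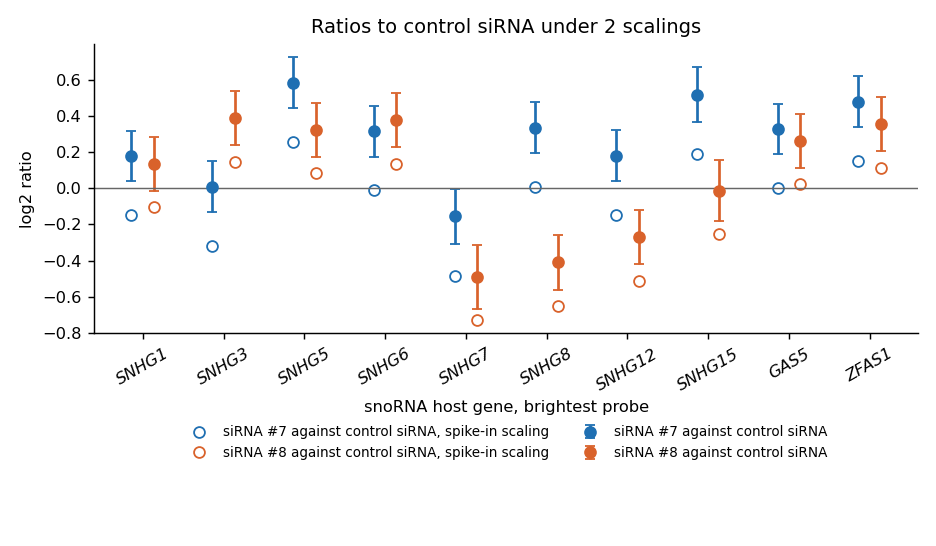
Log2 ratio to control siRNA (vertical axis) of the brightest probe of each host gene (horizontal axis), blue for siRNA #7 and orange for siRNA #8. Filled points are scaled on the 75th percentile, with error bars of 1 spot-to-spot SD, and open points are scaled on the E1A spike-in probes. The highest filled point is *SNHG5* with siRNA #7 at 0.58 and the lowest is *SNHG7* with siRNA #8 at -0.49.

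The genes that host box C/D snoRNAs are given first. *SNHG1* hosts a row of 8 of them between its exons, and its probe read 4761, 4291 and 4238. Both siRNA arrays were a little dimmer, by less than the arrays as a whole. The log2 ratios were 0.18 (SD 0.14) and 0.14 (SD 0.15). Neither reached 2 spot-to-spot SDs, and both turned negative under spike-in scaling, at -0.15 and -0.10, and under normexp, at -0.02 and -0.11.

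*GAS5*, which carries box C/D snoRNAs in nearly every intron, was read by its probe at 8498, 8492 and 8254. These raw intensities were almost level across the arrays. Scaled, the ratios were 0.33 (SD 0.14) and 0.26 (SD 0.15), and the siRNAs differed by -0.07 (SD 0.15), within the spot-to-spot error. The 14 measurable neighbouring spots had a median of 0.50 between the siRNAs, and after its removal that difference was -0.56. Under spike-in scaling the ratios were 0.00087 and 0.021.

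*ZFAS1*, the antisense neighbour of *ZNFX1*, hosts SNORD12 and its relatives. Its probe gave 7088, 7867 and 7341, so both siRNA arrays were brighter even before scaling. The ratios were 0.48 (SD 0.14) and 0.35 (SD 0.15), a difference of -0.12 (SD 0.15) between siRNAs. By the brightest probe only *ZFAS1* and *SNHG5* among the 10 had a higher raw intensity on both siRNA arrays. Their ratios to control siRNA stayed above 0 under all 7 alternative scalings, corrections and value sources, as those of *GAS5* did. The *ZFAS1* ratios ranged from 0.15 to 0.49 with siRNA #7 and from 0.11 to 0.41 with siRNA #8 over these 7 alternatives.

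*SNHG6*, host of SNORD87, is read by a pair of probes that did not give the same picture. The brighter probe read 5362, 5310.2 and 5639, with ratios of 0.31 (SD 0.14) and 0.38 (SD 0.15), or -0.01 and 0.14 under spike-in scaling. The dimmer probe read 2632, 2166 and 627. Its ratio was 0.05 (SD 0.14) with siRNA #7 but -1.77 (SD 0.16) with siRNA #8, which is past 2-fold in the opposite direction.

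The spots around both *SNHG6* probes are given beside this disagreement. The 17 measurable spots within 3 rows and 3 columns of the dimmer *SNHG6* spot had a median ratio of -0.45 with siRNA #8, and after removal of that median the probe stood at -1.31. Around the brighter *SNHG6* spot the median was 0.18, and the probe stood at 0.19 after removal. The spot of *SNHG8* lies in the same column as the dimmer *SNHG6* spot, in row 334 against row 341. Neither which *SNHG6* probe reports the RNA with siRNA #8 nor the part of array position in their gap was tested.

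**Figure D2:**
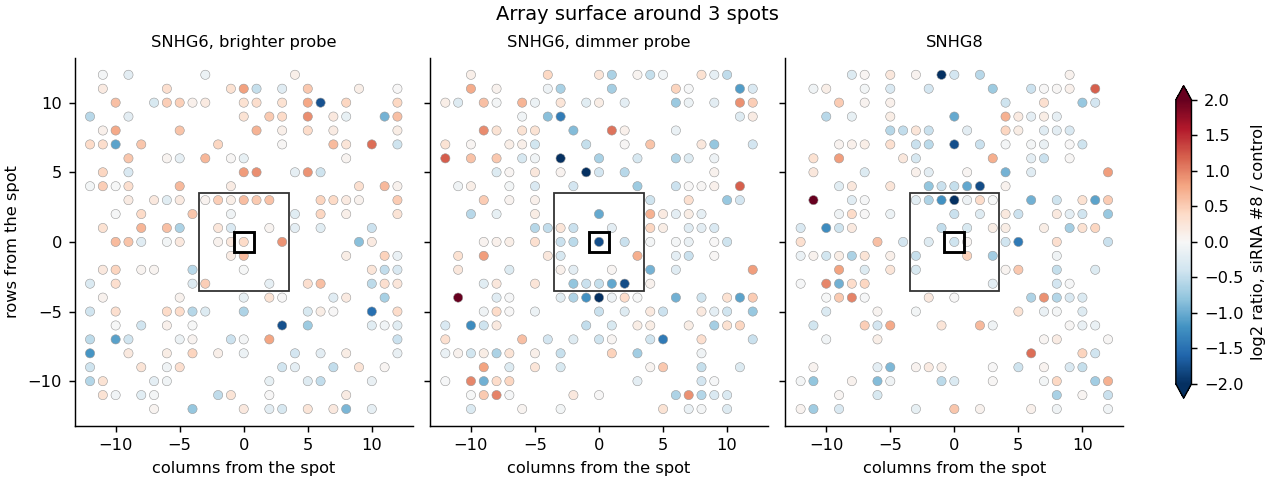
Passing gene probe spots around the brighter *SNHG6* probe, the dimmer *SNHG6* probe and the *SNHG8* probe, by distance in columns (horizontal axis) and rows (vertical axis), coloured by the log2 ratio of siRNA #8 to control siRNA with colours ending at 2 and -2. The black square marks the probe itself and the grey square the 3 rows and 3 columns on each side, in which the median ratio was 0.18, -0.45 and -0.27 from left to right.

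*SNHG5*, host of SNORD50B, is the only one of these genes with many probes, which lets its ratio be read 18 times on different spots. Its brightest probe read 4441, 5299 and 4499, giving ratios of 0.58 (SD 0.14) and 0.32 (SD 0.15). Both siRNA arrays were the brighter ones for this probe. Its gap between siRNAs was -0.26 (SD 0.15), and 0.0024 with neighbouring spots removed. With siRNA #7, 17 of the 18 probes were above 0, with a median of 0.50, an SD over probes of 0.28 and a range of -0.20 to 1.01. The one probe below 0 was the one with the highest control siRNA intensity, 4701. Its neighbouring spots had a median of -0.33 with siRNA #7, and after removal of that median its ratio was 0.12.

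With siRNA #8, 14 of the 18 *SNHG5* probes were above 0, with a median of 0.24, an SD over probes of 0.38 and a range of -0.63 to 0.85. The 4 probes below 0 had control siRNA intensities of 330, 349, 1305 and 1700. Of these 3 were among the 9 dimmer probes, and 1 was the dimmest of the 9 brighter. Every probe brighter than that with control siRNA, up to 4701, was above 0. From siRNA #7 to siRNA #8, 15 of 18 probes were lower, with a median of -0.24 and a range of -1.20 to 0.54. The spread over probes exceeded the median spot-to-spot SD of these ratios, which was 0.14 with siRNA #7 and 0.15 with siRNA #8. The 18 probes share 1 RNA sample per array, so they repeat the reading of a culture and are not replicates of a condition. Some may cover different transcript forms, which was not tested.

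**Figure D3:**
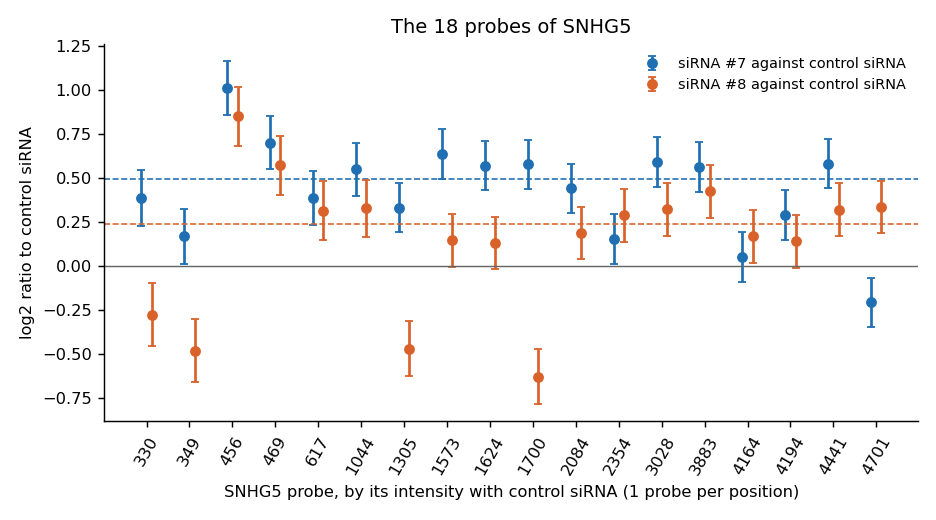
Log2 ratio to control siRNA (vertical axis) of the 18 *SNHG5* probes, ordered by their intensity with control siRNA (horizontal axis, 1 position per probe, not to scale). Points are blue for siRNA #7 and orange for siRNA #8, bars are 1 spot-to-spot SD, and dashed lines mark the medians of 0.50 and 0.24.

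The hosts of H/ACA snoRNAs follow. *SNHG3*, host of the U17 snoRNAs SNORA73A and SNORA73B, read 2075, 1662 and 2199. The siRNA #7 array was the dim one here. The ratio was 0.01 (SD 0.14) with siRNA #7 and 0.39 (SD 0.15) with siRNA #8. Between the siRNAs it differed by 0.38 (SD 0.15), the opposite direction from 8 of the 10 host genes, and this difference stayed between 0.35 and 0.46 under all 7 alternatives.

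*SNHG7*, host of SNORA17A and SNORA17B, gave lower values on both siRNA arrays by both of its probes, although neither siRNA #7 ratio reached 2 spot-to-spot SDs. The brighter one read 541, 387 and 312, with ratios of -0.16 (SD 0.15) and -0.49 (SD 0.18). The dimmer one read 56.7, 40.7 and 24.6, with ratios of -0.15 (SD 0.25) and -0.90 (SD 0.34). The siRNA #8 array was the lowest by both probes. The neighbours of the brighter spot had a median of -0.25 with siRNA #8, and after its removal the ratio was -0.24. *SNHG7* kept its sign under all 7 alternatives, with ratios from -0.48 to -0.04 with siRNA #7 and from -0.73 to -0.24 with siRNA #8.

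*SNHG8*, host of SNORA24, read 6606, 6629.6 and 4030.3. The siRNA #8 array stood apart from the other two. The ratio was 0.33 (SD 0.14) with siRNA #7, -0.41 (SD 0.15) with siRNA #8 and -0.74 (SD 0.15) between them, the widest gap between siRNAs of the 10 brightest probes. The 19 neighbouring spots had a median of -0.27 with siRNA #8. After removal of the neighbours the gap between siRNAs was -0.58 and the ratio of siRNA #8 to control siRNA was -0.14.

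*SNHG15*, host of SNORA9, read 1050.1, 1196 and 843. It was brightest with siRNA #7. The ratio was 0.52 (SD 0.15) with siRNA #7 and -0.01 (SD 0.17) with siRNA #8, and the gap between them was -0.53 (SD 0.15). That gap ranged from -0.57 to -0.44 over the 7 alternatives.

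*SNHG12*, whose introns hold both classes of snoRNA, read 3153, 2845 and 2118. The siRNA #8 array was again the dimmest. The ratio was 0.18 (SD 0.14) with siRNA #7, -0.27 (SD 0.15) with siRNA #8 and -0.45 (SD 0.15) between them. Its 18 neighbouring spots had a median of -0.26 with siRNA #8 and -0.40 between the siRNAs, and with these removed *SNHG12* was at -0.01 against control siRNA and at -0.05 between the siRNAs. Under spike-in scaling its ratio to control siRNA with siRNA #7 was -0.15.

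**Figure D4:**
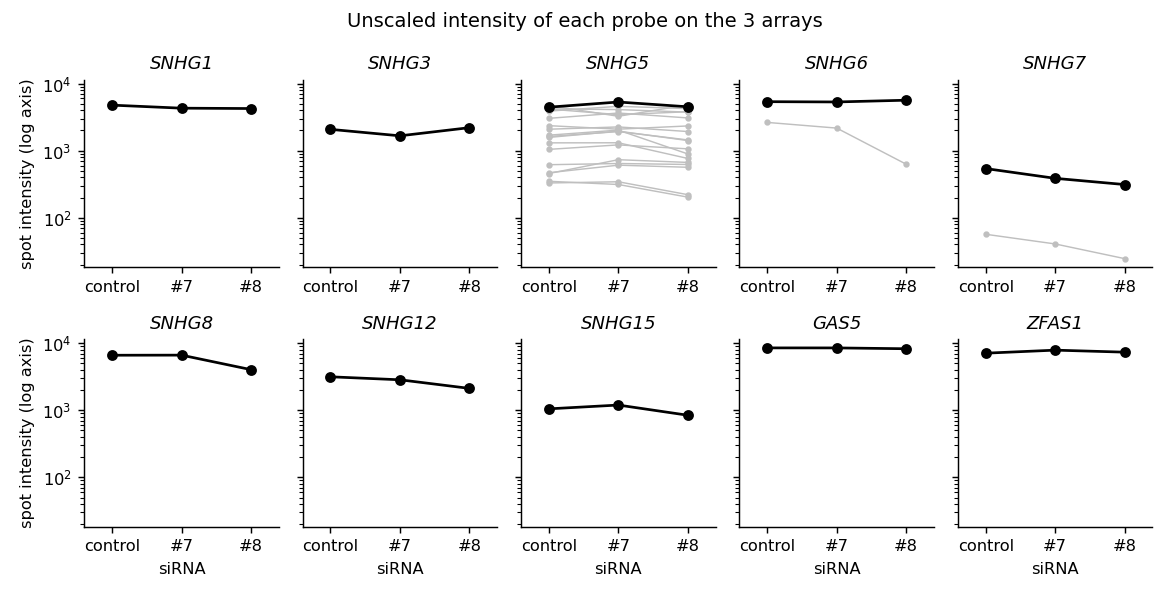
Unscaled spot intensity (vertical axis, log scale) of every probe of the 10 host genes on the control siRNA, siRNA #7 and siRNA #8 arrays (horizontal axis). Black lines are the brightest probe of a gene and grey lines its other probes. The *SNHG8* line drops with siRNA #8 to 4030.3 and the grey *SNHG6* line to 627, while *GAS5* stays between 8254 and 8498.

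Read against the spot-to-spot error, 6 host genes were higher with siRNA #7 by more than 2 SDs, namely *SNHG5*, *SNHG6*, *SNHG8*, *SNHG15*, *GAS5* and *ZFAS1*. Of all genes on 1 spot 14.3% were. Under spike-in scaling none of the 6 remained higher by more than 2 SDs (3.98% of all genes on 1 spot), and *SNHG3* and *SNHG7* were lower by that much (40.6%). Under normexp 2 remained, *SNHG5* and *ZFAS1* (5.01%). With siRNA #8, *SNHG3*, *SNHG5*, *SNHG6* and *ZFAS1* were higher by more than 2 SDs (13.7%), and *SNHG7* and *SNHG8* were lower (15.8%). None of these 4 remained higher by more than 2 SDs under spike-in scaling (4.88%) or normexp (4.51%). *SNHG12* joined the lower ones under spike-in scaling (31.7%), and *SNHG12* and *SNHG15* did under normexp (16.7%). With neighbouring spots removed 0 host genes were lower by more than 2 SDs with siRNA #8 (15.5% of all genes on 1 spot). Between siRNA #8 and siRNA #7, *SNHG7*, *SNHG8*, *SNHG12* and *SNHG15* were lower by more than 2 SDs (19.3%) and *SNHG3* was higher (16%). *SNHG3*, *SNHG8* and *SNHG15* stayed past 2 SDs between the siRNAs under all 7 alternatives, *SNHG12* under all but the removal of neighbours, and *SNHG7* only with the deposited log2 values. When both siRNA arrays were joined as 1 silenced group and set against the control siRNA array with limma, no host gene reached an adjusted p under 0.05, and 1 of the 12031 genes did (0.00831%). At an unadjusted p under 0.05, 0 host genes and 396 genes (3.29%) passed. This fit takes the spread from the siRNA arrays and assumes that the lone control siRNA array varies like them.

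The snoRNAs inside these introns have probes of their own. Of 35 snoRNAs listed for the 10 hosts, 31 had a probe, all 31 lie within their host in RefSeq, and 28 were well above background on all arrays. The 3 that were not, SNORD75, SNORD77 and SNORD79, belong to *GAS5*. With siRNA #7, 26 of the 28 were above control siRNA (51.7% of all genes), with a median of 0.37, and 16 under spike-in scaling (18.8% of all genes), with a median of 0.046. With siRNA #8, 16 were above (50.8%), with a median of 0.15, and 13 under spike-in scaling (26.8%), with a median of -0.094. Between siRNAs 22 of the 28 were lower with siRNA #8 (51.2%), with a median of -0.28. Under spike-in scaling 22 were lower too, with a median of -0.19, where 57.3% of all genes were higher. At least 1.5-fold higher were 8 with siRNA #7 (7.6% of all genes) and 2 with siRNA #8 (7.79%), and 2 were at least 1.5-fold lower with siRNA #8 (10.3%). Whether these probes bind the mature snoRNA or the unspliced host was not tested, so they are not a separate measure of snoRNA amount.

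Host and snoRNA probes were read on the same arrays under the same scaling, so their signs are given side by side and not counted as agreement. For *SNHG8* the pattern of the host returned in SNORA24, which read 265.6, 388 and 142. SNORA24 was highest with siRNA #7 and lowest with siRNA #8, at ratios of 0.88 (SD 0.16) and -0.60 (SD 0.18). Its gap between siRNAs, -1.47 (SD 0.16), was past 2-fold, and SNORA17B of *SNHG7* was the other snoRNA probe past 2-fold between siRNAs, at -1.11 (SD 0.20).

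All 4 snoRNA probes of *SNHG12* were lower with siRNA #8 than with siRNA #7, from -0.50 to -0.27, as the host probe was at -0.45. Against control siRNA 3 of the 4 were below 0 with siRNA #8, as the host was at -0.27. The brightest, SNORA16A, was above 0 with both siRNAs, at 0.69 (SD 0.14) and 0.42 (SD 0.15). SNORA9 of *SNHG15* gave 0.40 and -0.17, against 0.52 and -0.01 for its host. The 3 probes of *ZFAS1* snoRNAs gave 0.52 to 0.84 with siRNA #7, the host 0.48, and 0.34 to 0.53 with siRNA #8, the host 0.35. *SNHG1* had 7 of 8 snoRNA probes above 0 with each siRNA, from -0.12 to 0.78 with siRNA #7 and from -0.11 to 0.50 with siRNA #8. Among the 5 measurable *GAS5* snoRNAs, all were above 0 with siRNA #8, from 0.29 to 0.89, and 4 with siRNA #7, where SNORD80 stood at -0.41 (SD 0.16). The value of 0.89 came from SNORD44, on a dim probe with an SD of 0.41.

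Host and snoRNA probes also parted in other genes. *SNHG3* was at 0.01 and 0.39 with the siRNAs, whereas SNORA73A stood at 0.37 and -0.01 and SNORA73B at 0.51 and -0.11. SNORD87 gave 0.12 and -0.31 where the brighter *SNHG6* probe gave 0.31 and 0.38. SNORD50B gave 0.21 and -0.12 where *SNHG5* gave 0.58 and 0.32. In *SNHG7*, SNORA17A stood at 0.07 and -0.11 and SNORA17B at 0.38 and -0.73. SNORA73A and SNORA73B are near copies of each other, as are SNORA17A and SNORA17B, and how far a probe separates such copies was not tested.

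**Figure D5:**
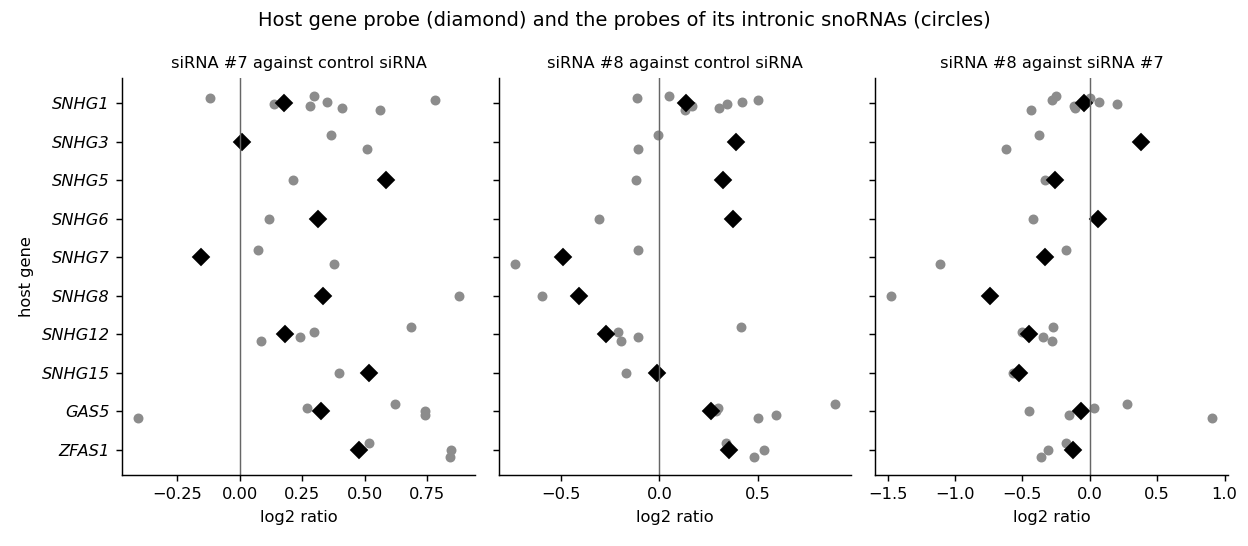
Log2 ratio (horizontal axis, a scale of its own in each panel) of the brightest host probe (black diamonds) and of the measurable probes of its intronic snoRNAs (grey circles), with 1 host per line, for siRNA #7 against control siRNA, siRNA #8 against control siRNA and siRNA #8 against siRNA #7. In the right panel SNORA24 on the *SNHG8* line lies farthest left, at -1.47, and SNORD80 on the *GAS5* line farthest right, at 0.91.

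Other genes of the pathway were read as whole lists. Of 16 further SNHG genes, 8 had a measurable probe, with medians of 0.28 with siRNA #7 and 0.13 with siRNA #8. With each siRNA 6 of the 8 were above control siRNA (51.7% and 50.8% of all genes). Under spike-in scaling 4 and 3 were (18.8% and 26.8%). *SNHG29* (0.48 and 0.28) and *SNHG16* (0.40 and 0.36) were the highest and *SNHG11* (-0.31 and -0.50) and *SNHG10* (-0.15 and 0.15) the lowest by the mean of both ratios. The *SNHG10* probe was dim, with SDs of 0.40 and 0.41. None of the 8 was past 1.5-fold (14.5% of all genes with siRNA #7 and 18% with siRNA #8). Of 28 protein-coding genes that also carry snoRNAs, 24 were above 0 with siRNA #7 (51.7% of all genes) and 22 with siRNA #8 (50.8%), with medians of 0.21 and 0.20. Under spike-in scaling 8 and 10 of the 28 were above 0 (18.8% and 26.8% of all genes). With quantile normalization 15 and 14 were (50% and 51.8%), with medians of 0.013 and 0.014. With normexp 17 were with each siRNA (40.3% and 41.2%), with medians of 0.028 and 0.042. *EIF4A2*, an initiation factor gene, gave 0.58 and 0.57, *HSPA8*, a chaperone gene, gave 0.00 and -0.23, and *NOP56*, which encodes a core protein of box C/D particles, gave -0.16 and -0.36.

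The 79 cytosolic ribosomal protein genes, whose mRNAs begin with the same kind of pyrimidine tract, had medians of 0.23 and 0.19. Above 0 were 70 and 66 of them (51.7% and 50.8% of all genes). Under spike-in scaling the medians were -0.094 and -0.050, with 24 and 32 above 0 (18.8% and 26.8% of all genes). With quantile normalization they were 0.044 and 0.042, with 44 and 45 above 0 (50% and 51.8%). With normexp they were 0.028 and 0.030, with 46 and 44 above 0 (40.3% and 41.2%). *RPL23*, which is a snoRNA host too, was past 2-fold with both siRNAs (2.35 and 1.90). *RPL5* (-0.91 and -0.33) and *RPL14* (-0.07 and -0.87) were the lowest. Ribosomal protein genes have many processed pseudogenes, and whether these probes separate them was not tested.

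The 18 genes for the proteins of snoRNA particles and their assembly did not share the positive medians. Theirs were -0.061 with siRNA #7 and -0.084 with siRNA #8. With each siRNA 8 of 18 were above 0 (51.7% and 50.8% of all genes). Under spike-in scaling 2 and 4 were (18.8% and 26.8%), with medians of -0.39 and -0.32. *SNU13*, a core protein of box C/D particles (0.26 and 0.35), and *NOP10*, one of H/ACA particles (0.21 and 0.37), were the highest. The assembly factor genes *ZNHIT3* (-0.67 and -0.28) and *NUFIP1* (-0.92 and 0.09) were the lowest, the latter on a dim probe with an SD of 0.40. The 16 nonsense-mediated decay genes had medians of 0.069 and -0.039, with 10 and 7 above 0 (51.7% and 50.8% of all genes). Under spike-in scaling 2 and 1 were above 0 (18.8% and 26.8%), with medians of -0.26 and -0.28. Lower with siRNA #8 than with siRNA #7 were 14 of the 16 (51.2% of all genes). Under spike-in scaling 10 of the 16 were lower, where 57.3% of all genes were higher. *UPF1*, the central helicase of that pathway, gave 0.33 and 0.07, *UPF3A* gave 0.33 and 0.51, *CASC3* gave -0.11 and -0.24, and *MAGOHB* gave -0.16 and -0.48. The *UPF3A* probe was dim, with SDs of 0.40 and 0.41.

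Of 23 long non-coding RNAs outside the SNHG names 19 were measurable, and these had medians of -0.020 and 0.0092. Above 0 were 9 and 10 of them (51.7% and 50.8% of all genes). Under spike-in scaling 4 and 6 were (18.8% and 26.8%), with medians of -0.35 and -0.23. *EPB41L4A-AS1*, which itself carries a snoRNA, stood at 0.92 and 0.53 and *NORAD*, a cytoplasmic RNA that binds Pumilio proteins, at 0.55 and 0.93. The lowest were *CCAT1*, a colon cancer associated transcript, at -0.08 and -1.22 and *MIR22HG* at -0.49 and -0.48. The *MIR22HG* probe was dim, with SDs of 0.40 and 0.41. *CCAT1* was past 2-fold with siRNA #8 (3.03% of all genes at least 2-fold lower).

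Of the RefSeq starts at hand, a protein-coding gene begins on the opposite strand 224 bases from *SNHG1* and another 665 bases from *GAS5*. The gene near *SNHG1* is *SLC3A2*, the heavy chain of amino acid transporters, which read 580.5, 704 and 529. Its ratios were 0.61 (SD 0.15) and 0.17 (SD 0.17), against 0.18 and 0.14 for *SNHG1*. *ZBTB37*, near *GAS5*, had no measurable probe. For the other 6 genes the nearest such start in this table, which does not hold every gene, lay at least 10392 bases away (*RAB42* for *SNHG12*, *DIPK1B* for *SNHG7*, *STAU1* for *ZFAS1*, *PRSS12* for *SNHG8*, *TAF12* for *SNHG3* and *NT5E* for *SNHG5*).

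The genes whose pair of ratios to control siRNA lay nearest to the host gene medians, by Euclidean distance over 2 ratios from 3 arrays, were *UBE2D4* (distance 0.0033), *NKIRAS2* (0.011), *RPS19BP1* (0.011), *CHCHD6* (0.011) and *SIX5* (0.012). In all, 286 genes lay within 0.1 of this point.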

How the data were processed

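Expression was measured in HCT116 cells with control siRNA, siRNA #7 or siRNA #8, on 1 one-color SurePrint G3 array each. Per the file headers, the deposited intensity of each spot was produced with Agilent Feature Extraction 11.5.1.1, which had subtracted the background but had not scaled the arrays to each other. A second table deposited by the authors holds log2 values of 21189 probes made with GeneSpring 14.9, with the normalization not given in the sources used here. Set against the intensities these log2 differences had a slope of 1 and shifts of 0.33 with siRNA #7 and 0.30 with siRNA #8, the values of a probe have a median of 0, and so has each column. The names under which the spot tables of the siRNA arrays were deposited do not carry the same siRNA numbers as the sample labels. Every siRNA #7 and siRNA #8 value here follows the labels.

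In Python 3.11.15 (numpy 2.4.6, pandas 2.3.3, figures with matplotlib 3.10.9), outlier spots were left out (409, 413 and 313), spots of a probe were averaged, and log2 of the 75th percentile over gene probes was subtracted. A passing probe reached the 20th percentile on 2 or more arrays and carried the flag for signal well above background on each of the 3, and the brightest passing probe stood for its gene. The accessions of 30000 probes matched RefSeq (GRCh38.p14), while the design of the array predates that build. Spot-to-spot SDs came from probes printed 10 times, pooled in 6 ranges of signal, and combine both arrays of a ratio. The number of arrays limits the precision, and no spot of a gene probe was saturated (0).

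The host genes, the gene lists and the tests were chosen with earlier results of these data known. Named are the host genes, the nearest opposite-strand gene of each, the 2 highest and 2 lowest genes of each list by the mean of both ratios with those past 2-fold with both siRNAs, and the 5 genes nearest to the host gene medians. One item that this rule selects is not reported here. As alternatives the arrays were scaled by quantiles, by their median, by the 75th percentile of the probes that were well above background throughout, or by E1A spike-in probes. Others were normexp with an offset of 50 on median signals, the deposited log2 values, removal of the median deviation of neighbours within 3 rows and 3 columns, 2 other filters on dim probes, 1.5-fold, the mean in place of the brightest probe, and limma 3.58.1 (R 4.3.3) over both siRNA arrays. The median probe and the second-brightest probe were added after seeing the data. The steps were tested on simulated data. The study's overexpression arrays were not analysed here.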

Additional observations from a re-analysis of the deposited data

Results flagged for a closer look

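*SNHG8* and *SNHG12* stood on opposite sides of the control siRNA level with the 2 siRNAs, each by more than its spot-to-spot SD. The log2 ratio of siRNA #8 to siRNA #7 was -0.74 for *SNHG8* and -0.45 for *SNHG12*. With 1 array per condition this difference between the siRNAs was not tested. Under spike-in scaling the ratio with siRNA #7 was 0.0072 for *SNHG8* and -0.15 for *SNHG12*, so neither lay above control siRNA by its spot-to-spot SD. With neighbouring spots removed the ratio with siRNA #8 was -0.14 for *SNHG8* and -0.0084 for *SNHG12*, within the spot-to-spot SD. The spots around *SNHG8* had a median of -0.16 between the siRNAs and those around *SNHG12* a median of -0.40, and the part of array position in either value was not tested.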

How the results depend on the processing

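No paired analysis was possible because a single array stands for each condition, so no replicate could be left out either. Under E1A spike-in scaling the median of the host genes against control siRNA was -0.0055 with siRNA #7 and -0.042 with siRNA #8, and under normexp it was 0.072 and -0.0036. Between siRNA #8 and siRNA #7 the median was -0.37 with the mean of the passing probes and -0.34 with their median, and the cause was not tested. At 1.5-fold 1 host gene passed between the siRNAs (*SNHG8*). With the second-brightest probe 1 passed 2-fold with siRNA #8 and 1 between the siRNAs, in both cases *SNHG6*. The other alternatives run left the 3 counts at 0 and moved none of the 3 medians by as much as the median spot-to-spot SD of the host genes' ratios. Over the 30 ratios of single host genes, 295 of 360 reruns stayed within the spot-to-spot SD and 65 moved past it. Many of the 295 could not move. The 2 other filters on dim probes keep the brightest probe of each host gene, and 7 host genes have only 1 probe. Spike-in scaling moved 20 of the 30 ratios, removal of neighbours 16 and normexp 14. The sign against control siRNA turned under at least 1 of the 7 scalings, corrections and value sources for *SNHG1*, *SNHG3*, *SNHG6* and *SNHG12* with siRNA #7 and for *SNHG1* and *SNHG15* with siRNA #8. The planned use of a gene name column was not run, since the spot files read here name probes by accession. The number of arrays limits all of these values.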
